A study of Mus musculus with 56 samples.

Results

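The genes described here are 36 genes of G2 and mitosis, chosen by name from what their proteins do when a cell divides. Of these, 35 had at least 1 probe set annotated to that gene alone, 79 probe sets in all, among 18195 genes with such a probe set on the array. Ccnb1, cyclin B1, had none and is named only. By role the 36 are 10 entry kinases, cyclins and regulators, 7 genes of the spindle checkpoint and anaphase, 6 of the chromosomal passenger complex and centromere, 6 spindle motors and microtubule factors, 5 cytokinesis genes and 2 genes of chromosome structure.

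Liver RNA of 56 male CD-1 mice, 6 to 8 weeks old when dosing began, was measured on 1-colour oligonucleotide arrays, 1 array per mouse. The mice had received an LNA gapmer, a short DNA oligonucleotide flanked by locked nucleic acids that directs RNase H to cleave RNA, under the skin at 25 mg/kg, or the buffered saline DPBS as vehicle. HTS-3, labelled severely toxic, was given once, with livers taken at 8 h (3 mice) and 16 h (4 mice). The mice dosed with HTS-3 for the 72 h time died or were moribund before it. TS-2, labelled toxic, was given once, with livers taken at 8 h (4 mice), 16 h (3 mice) and 72 h (4 mice), or repeatedly (days 1, 4, 8 and 11; 5 mice, livers of day 14, called 2 weeks below). NTS-1, labelled non-toxic, was given once (3 mice at 8 h, 4 at 16 h and 3 at 72 h) or on the same days for 2 weeks (4 mice). Vehicle was given once (3 mice at each of 8, 16 and 72 h) or for 2 weeks (10 mice). No mouse carried a transgene or deletion by the labels. The labels state that livers with the highest scores for hepatic hypertrophy were picked for the arrays, so the mice are not a random draw from each dosed group. HTS-3 8 h mouse 3 is placed at 8 h by its title and source and at 16 h by its description; it was kept at 8 h, and results that change when it is moved are given below.

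Cells enter mitosis when the kinase Cdk1 binds a cyclin, and leave it when the anaphase-promoting complex, with Cdc20 and the ubiquitin-conjugating enzyme Ube2c, marks cyclin B and securin for destruction. Most of the genes are transcribed in G2 under the control of the DREAM and MuvB complexes, which contact a promoter element called the CHR, often beside CCAAT boxes. Adult hepatocytes rarely divide but can enter the cycle again after loss of liver tissue, so transcripts of these genes are scarce in a resting liver.

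The promoters below are those of the 3 genes whose chosen probe set passed under every setting tried 2 weeks after TS-2 (Cdca8, Ube2c and Cdc20) and of the 2 that passed 8 h after HTS-3 (Cdk1 and Birc5). Each is the RefSeq sequence on mouse GRCm38.p6 from 250 bases before to 50 bases after the annotated start, written 5′ to 3′ on the gene's strand. Capitals mark the CHR letters TTTGAA or TTCAAA and the CCAAT box letters CCAAT or ATTGG, each searched on both strands.
Cdca8 chr4:124936868-124937167 (- strand): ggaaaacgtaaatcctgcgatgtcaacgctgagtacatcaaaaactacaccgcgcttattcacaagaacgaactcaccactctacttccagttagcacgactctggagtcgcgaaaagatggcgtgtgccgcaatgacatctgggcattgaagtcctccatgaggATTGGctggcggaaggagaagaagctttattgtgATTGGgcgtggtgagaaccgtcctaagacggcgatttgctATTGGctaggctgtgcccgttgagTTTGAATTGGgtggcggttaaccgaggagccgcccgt
Ube2c chr2:164769679-164769978 (+ strand): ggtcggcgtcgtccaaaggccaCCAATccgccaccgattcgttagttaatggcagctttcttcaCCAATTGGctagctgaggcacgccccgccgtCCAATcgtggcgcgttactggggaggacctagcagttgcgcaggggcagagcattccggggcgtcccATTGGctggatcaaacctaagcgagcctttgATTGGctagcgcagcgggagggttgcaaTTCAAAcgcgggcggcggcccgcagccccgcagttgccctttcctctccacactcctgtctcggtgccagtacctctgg
Cdc20 chr4:118437294-118437593 (- strand): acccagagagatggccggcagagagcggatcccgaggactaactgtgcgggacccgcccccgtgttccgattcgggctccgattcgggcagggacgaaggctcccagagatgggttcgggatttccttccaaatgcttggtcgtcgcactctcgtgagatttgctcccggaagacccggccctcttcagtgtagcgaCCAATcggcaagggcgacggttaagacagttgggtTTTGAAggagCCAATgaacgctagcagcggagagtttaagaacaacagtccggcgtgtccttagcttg
Cdk1 chr10:69352863-69353162 (- strand): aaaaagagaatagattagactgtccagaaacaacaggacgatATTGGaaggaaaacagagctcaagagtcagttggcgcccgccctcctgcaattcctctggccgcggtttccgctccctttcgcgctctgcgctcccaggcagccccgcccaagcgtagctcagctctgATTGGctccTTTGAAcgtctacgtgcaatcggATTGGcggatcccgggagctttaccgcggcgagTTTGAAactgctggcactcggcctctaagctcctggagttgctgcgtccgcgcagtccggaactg
Birc5 chr11:117848987-117849286 (+ strand): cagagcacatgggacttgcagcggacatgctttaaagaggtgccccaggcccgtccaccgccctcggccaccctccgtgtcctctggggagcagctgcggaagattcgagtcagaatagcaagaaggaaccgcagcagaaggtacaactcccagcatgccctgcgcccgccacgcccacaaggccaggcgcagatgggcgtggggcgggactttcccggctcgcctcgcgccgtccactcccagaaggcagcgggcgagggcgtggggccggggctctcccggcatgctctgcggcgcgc
In Cdca8 the CHR and the last CCAAT box share a base, and in Ube2c a pair of CCAAT boxes on opposite strands overlap. The Birc5 window held neither set of letters.

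Promoters of 30 of the 36 genes were in the RefSeq table; Ccna2, Pbk, Foxm1, Aurkb, Tpx2 and Kif20a were not. The CHR letters occurred in 22 of the 30 promoters (73.3%), against 18.1% of 27025 promoters of the same length. CCAAT letters occurred in 25 (83.3%), against 37.9% of all promoters, and both motifs in 21 (70%), against 7.12%. The CHR started within 50 bases of the start site in 19 (63.3%), against 4.92% of all promoters. The share with these letters was the same in genes that rose 2 weeks after TS-2 and in genes that did not pass. The CHR was in 9 of 11 promoters of genes that rose, in 9 of 11 of genes that were tested and did not pass, and in 4 of 7 of genes too dim to test. CCAAT letters were in 9 of 11, 9 of 11 and 6 of 7 of them.

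Values below are the deposited linear intensities, which have no physical unit and compare mice for 1 gene, not genes with each other. An intensity under 32 was taken as dim. Where every mouse of 1 group was dim, only a lower limit is given for a fold, the brighter group's geometric mean over 32, and no fold where that mean is itself under 32. The single-dose arrays and the 2-week arrays were normalized apart, and no value is compared across them. In the single-dose set all 35 genes entered the test, but 27 never reached 32 on any of the 37 arrays, and 7 did so on at least 3 arrays (Cdk1, Nek2, Mad2l1, Cdc20, Ube2c, Cdca8 and Cenpa). That set has a lowest value of 4.56, and 10 of the 35 genes lay within 10% of it on every array. In the 2-week set 26 of the 35 genes passed the filter on dim probe sets and 23 reached 32 on at least 3 arrays. The 9 left untested there were Melk, Bub1, Bub1b, Ttk, Aurkb, Cenpe, Kif20a, Ect2 and Top2a. The 3′ to 5′ ratio of the actin control probe sets, a sign of RNA quality, was 1.41 to 1.66 (log2) in TS-2 livers and 1.36 to 1.87 in vehicle livers at 2 weeks, and 1.35 to 1.69 in HTS-3 livers and 1.39 to 1.69 in vehicle livers at 8 h.

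Repeated dosing with TS-2 gave the broadest change in these genes. After 2 weeks, 12 of the 26 tested genes were higher in TS-2 livers than in vehicle livers and 0 were lower (limma, Benjamini-Hochberg adjusted p under 0.05 over 14454 genes), where 22.8% of all genes tested were higher and 14.6% lower. They were Cdca8, Ube2c, Cdc20, Cdca3, Birc5, Nusap1, Mki67, Ccnb2, Aurka, Ckap2, Racgap1 and Pbk. The median change of the 26 was 0.34 (log2), against -0.01 over all genes tested. The filter asked for 3 arrays of any group, so genes high only in TS-2 livers could enter the test through them. Outside TS-2 mice Birc5 did not exceed 23.6, Ube2c 24.9 or Nusap1 26.3, while untested Cenpe reached 27.5 in a vehicle mouse. The count of 12 and this median may therefore lean upward. By role the genes that rose were 3 of 8 entry kinases, cyclins and regulators, 3 of 4 checkpoint and anaphase genes, 2 of 4 passenger and centromere genes, 2 of 6 motors and microtubule factors, 1 of 3 cytokinesis genes and the 1 chromosome structure gene tested. In 3 of the 26, Cdca8, Ube2c and Cdc20, every TS-2 mouse lay above every vehicle mouse. That share is not far from the 7.8% of all genes tested for which this held. In whole liver, a change in the number of dividing cells and a change in RNA per cell cannot be told apart.

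**Figure D1:**
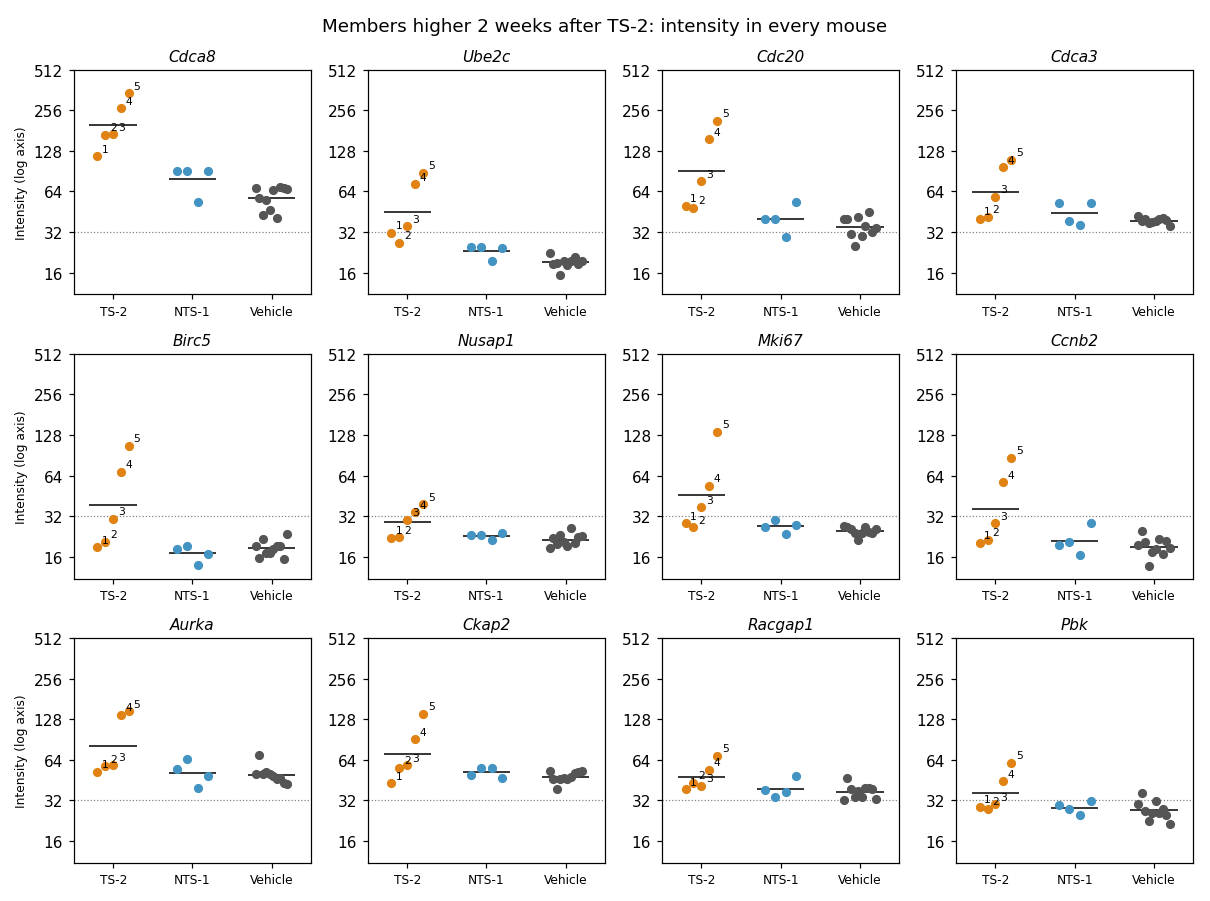
Intensity (log axis) of the 12 genes that were higher 2 weeks after TS-2, in each TS-2 mouse (numbered 1 to 5), NTS-1 mouse and vehicle mouse; bars are geometric means and the dotted line is the dim limit of 32. TS-2 mice 4 and 5 are the highest TS-2 mice in all 12 genes, and in Cdca8, Ube2c and Cdc20 every TS-2 mouse lies above every vehicle mouse.

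Cdca8 encodes borealin, the subunit that holds the chromosomal passenger complex on centromeres. Its intensity was 117, 168, 170.1, 265 and 343 in TS-2 mice 1 to 5, against 90.4, 90.1, 53.03 and 90.7 in NTS-1 mice and a lowest, median and highest of 40.8, 61.3 and 69.6 in the 10 vehicle mice. All TS-2 mice lay above both other groups, and 3 of 4 NTS-1 mice lay above all vehicle mice. The change against vehicle was 3.47-fold (log2 1.79 ± 0.21 SE, limma adjusted p = 3.74e-06, n = 5 and 10). Tested probe set by probe set, both of its other probe sets also rose, by 0.98 and 0.40 (log2); values of other probe sets below come from the same fit. Birc5 encodes survivin, another subunit of the same complex and an inhibitor of apoptosis. It had 18.7, 20.6, 30.6, 68.0 and 106 in TS-2 mice, against 18.2, 19.2, 14.0 and 16.7 in NTS-1 mice and 15.4, 18.8 and 23.6 (lowest, median, highest) in vehicle mice. TS-2 mice 4 and 5 passed 32 and mouse 3 was also above all vehicle mice, while mice 1 and 2 lay within the vehicle range. Birc5 was at least 1.21-fold higher (log2 1.06 ± 0.29 SE, limma adjusted p = 0.00632), and 0.70 (log2) without TS-2 mouse 5.

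The anaphase genes came next. Ube2c had 31.5, 26.5, 35.2, 72.5 and 88.0 in TS-2 mice, against 24.6, 24.9, 19.4 and 24.5 in NTS-1 mice and 15.3, 19.1 and 22.3 in vehicle mice (lowest, median, highest). The TS-2 mice lay wholly above the other mice, all of which were dim. Ube2c was at least 1.41-fold higher than in vehicle livers (log2 1.24 ± 0.21 SE, limma adjusted p = 0.000104). Cdc20, which activates the anaphase-promoting complex, had 50.2, 48.6, 76.0, 156 and 214 in TS-2 mice, against 40.01, 40.01, 29.1 and 53.8 in NTS-1 mice and 25.2, 34.8 and 45.2 in vehicle mice (lowest, median, highest). TS-2 mice were above all vehicle mice, and mice 1 and 2 overlapped the NTS-1 range. The change was 2.60-fold against vehicle (log2 1.38 ± 0.27 SE, limma adjusted p = 0.000519). Another probe set of Cdc20 rose by 1.12 (log2), while the last one changed by 0.15 and did not pass (limma adjusted p = 0.321). Cdca3, an adaptor in the destruction of the mitotic inhibitor Wee1, had 39.9, 41.3, 58.2, 96.5 and 109.9 in TS-2 mice, against 52.5, 38.8, 36.1 and 52.6 in NTS-1 mice and 35.1, 38.9 and 41.8 in vehicle mice (lowest, median, highest). TS-2 mice 3, 4 and 5 were above all vehicle mice and mice 1 and 2 were within their range. Its change was 1.63-fold (log2 0.70 ± 0.19 SE, limma adjusted p = 0.00544). The other Cdca3 probe set tested changed by -0.07 and did not pass (adjusted p = 0.629).

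Mki67 encodes Ki-67, the coat protein of mitotic chromosomes used as a stain for dividing cells. It had 28.4, 26.4, 37.2, 53.9 and 136 in TS-2 mice, against 26.4, 30.1, 23.6 and 27.6 in NTS-1 mice and 21.1, 24.9 and 26.9 in vehicle mice (lowest, median, highest). TS-2 mouse 5 stood far above the other 4, and mouse 2 was within the vehicle range. Mki67 was at least 1.44-fold higher (log2 0.89 ± 0.25 SE, limma adjusted p = 0.00758); without TS-2 mouse 5 the change was 0.50 and still passed (adjusted p = 0.00731). Ccnb2, cyclin B2, had 20.4, 21.3, 28.2, 57.1 and 86.5 in TS-2 mice, against 19.4, 20.5, 16.6 and 28.7 in NTS-1 mice and 13.7, 19.2 and 24.7 in vehicle mice (lowest, median, highest). TS-2 mice 1 and 2 lay within the vehicle range and mice 4 and 5 above every other mouse. Ccnb2 was at least 1.13-fold higher (log2 0.92 ± 0.26 SE, limma adjusted p = 0.00794), and 0.61 (log2) without TS-2 mouse 5. Nusap1, which bundles spindle microtubules near chromosomes, had 22.1, 22.3, 30.0, 34.2 and 39.1 in TS-2 mice, against 23.0, 23.1, 21.1 and 23.8 in NTS-1 mice and 18.6, 21.2 and 26.3 in vehicle mice (lowest, median, highest). Its geometric mean in TS-2 livers was 28.8, under 32, so Nusap1 has no fold; its change passed at log2 0.43 ± 0.12 SE (limma adjusted p = 0.00733).

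The genes above kept their calls with any single mouse left out, but not all did under the other settings. Mki67 and Ccnb2 lost theirs with only vehicle mice 1 to 5 and with only vehicle mice 6 to 10. They also lost theirs with replicate number as a block, which in effect sets aside vehicle mice 6 to 10. Birc5 and Nusap1 lost theirs with only vehicle mice 6 to 10. Each of the other 4 genes that rose lost its call without 1 of the mice named below. Aurka, the centrosomal kinase of spindle assembly, was 1.65-fold higher (log2 0.72 ± 0.21 SE, limma adjusted p = 0.0113), with TS-2 values of 52.0 to 147 and vehicle values of 42.5 to 69.4. Its adjusted p was 0.0543 without TS-2 mouse 4 and 0.0552 without TS-2 mouse 5. Ckap2, a stabilizer of spindle microtubules, was 1.48-fold higher (log2 0.56 ± 0.18 SE, adjusted p = 0.0196) and Racgap1, a subunit of centralspindlin at the cleavage furrow, 1.29-fold higher (log2 0.37 ± 0.12 SE, adjusted p = 0.0249). Without TS-2 mouse 4 or 5 the adjusted p was 0.0702 or 0.0815 for Ckap2 and 0.0751 or 0.119 for Racgap1. Without mouse 5 the change of Ckap2 was 0.32 (log2) and that of Racgap1 0.24 (log2). Pbk, a mitotic kinase, was 1.35-fold higher (log2 0.44 ± 0.16 SE, limma adjusted p = 0.0376). Most of its values were dim, with 27.6 to 61.1 in TS-2 mice and 21.5 to 36.5 in vehicle mice, of which only mouse 2 passed 32. Its call was lost without TS-2 mouse 4 or 5 or any of vehicle mice 3, 4, 5, 9 and 10. The adjusted p was then between 0.0517 and 0.181. The change of Pbk without TS-2 mouse 5 was 0.25 (log2).

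Of the 14 tested genes that did not pass, Cdk1, the kinase of mitotic entry, had 112, 91.3, 112, 150.3 and 214 in TS-2 mice, against 115, 88.1, 65.6 and 78.9 in NTS-1 mice and 76.6, 98.0 and 119 in vehicle mice (lowest, median, highest). TS-2 mice 4 and 5 were above all other mice and mice 1 to 3 were within the vehicle range (log2 0.41 ± 0.17 SE, limma adjusted p = 0.0646). Ccna2, cyclin A2, gave 0.32 (adjusted p = 0.0521) with the probe set used here, and its other probe set 0.46 (adjusted p = 0.00195), so its call depends on the probe set. Prc1, which bundles the microtubules of the midzone, gave 0.24 (adjusted p = 0.0538), and Mad2l1, the checkpoint protein Mad2, 0.25 (adjusted p = 0.192). The lowest changes were those of Cenpa, the histone H3 variant of centromeres, at -0.46 (adjusted p = 0.091), and Cenpf, a kinetochore protein, at -0.24 (adjusted p = 0.0816). The call of Cenpa also depends on the probe set: fitted by probe set, another one was lower at -0.37 (adjusted p = 0.0492), and its last at -0.11 was not (adjusted p = 0.342). Foxm1, the transcription factor that activates G2 genes, had 98.1, 101, 111, 91.8 and 89.0 in TS-2 mice, against 115, 133, 103 and 132 in NTS-1 mice and 95.3, 105 and 119 in vehicle mice (lowest, median, highest). The groups overlapped, and the change against vehicle was -0.11 (log2, adjusted p = 0.301). The remaining 7 had changes between -0.15 and 0.03 with the probe sets used here. They were Plk1, the polo kinase, Nek2, a kinase of centrosome separation, the kinesins Kif23 of the midbody, Kif11 of the bipolar spindle and Kif2c of kinetochores, Hmmr, a spindle assembly factor, and Tpx2, the activator of Aurka. Other probe sets tested for these genes ran from -0.10 (Nek2) to 0.30 (Kif2c, limma adjusted p = 0.0619), with one of Hmmr at 0.18, and none passed.

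Tested without the filter, 2 of the 9 dim genes also passed. Kif20a, a kinesin of cytokinesis, had 21.1, 24.0, 25.5, 35.9 and 36.2 in TS-2 mice, against 17.4, 18.1, 24.0 and 21.0 in NTS-1 mice and 17.3 to 21.5 in vehicle mice. It overlapped the vehicle range in mouse 1 only (log2 0.56 ± 0.12 SE, limma adjusted p = 0.000898). Aurkb, the kinase of the chromosomal passenger complex, changed by 0.22 (log2, adjusted p = 0.0407) with all values under 32. Top2a, the topoisomerase that untangles sister chromatids, had 22.2, 20.6, 22.6, 20.4 and 22.0 in TS-2 mice, against 22.6, 21.0, 22.3 and 18.3 in NTS-1 mice and 19.7, 24.2 and 27.8 in vehicle mice (lowest, median, highest). These values are dim in every mouse and the groups overlapped. A second Top2a probe set had 21.2, 19.2, 27.9, 35.4 and 73.4 in TS-2 mice, against 16.3 to 28.0 in vehicle mice, and did not pass (log2 0.55, limma adjusted p = 0.0765).

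The 5 TS-2 mice differed from each other in the same order for most of the genes that rose. Mice 4 and 5 were the highest TS-2 mice, and mouse 5 the highest of all, in 12 of the 12 genes. Mouse 1 lay above every vehicle mouse in 4 of the 12, mouse 2 in 4, mouse 3 in 9, and mice 4 and 5 in 12 each. The 12 genes were called on these same TS-2 values, so these counts only describe them. Mouse 5 was the highest of the 19 arrays in 53.8% of the 26 tested genes, against 18.6% of all genes with a single highest array. For mouse 4 these shares were 11.5% and 10.6%. Over all 26 tested genes, the share above every vehicle mouse was 15.4%, 15.4%, 38.5%, 61.5% and 65.4% in mice 1 to 5. Over all 14454 genes tested it was 16%, 22.6%, 23%, 26.3% and 30.4%. Both sets of genes had passed a filter that high TS-2 values could help to meet. Without mice 4 and 5, a setting chosen after the data were seen, 4 genes remained higher, Cdca8 by 1.39, Cdc20 by 0.71, Ube2c by 0.70 and Mki67 by 0.29 (log2), and Cenpa was lower at -0.78.

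**Figure D2:**
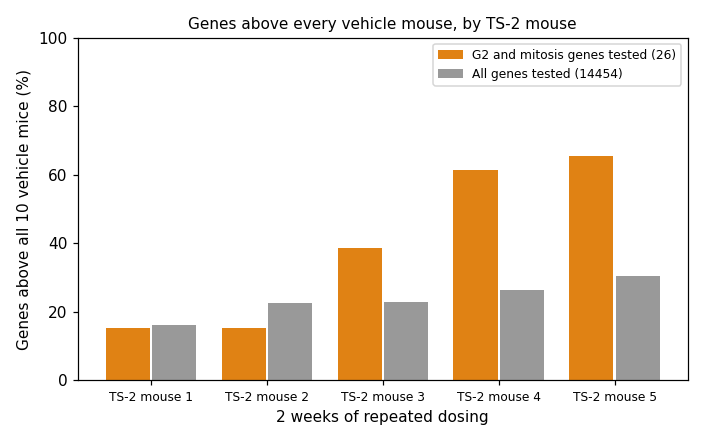
Share of genes (percent) whose intensity lay above that of all 10 vehicle mice, for each TS-2 mouse after 2 weeks; orange bars are the 26 G2 and mitosis genes tested and grey bars all 14454 genes tested. The share of the 26 genes runs from 15.4% in mice 1 and 2 to 65.4% in mouse 5, while that of all genes stays between 16% and 30.4%.

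Markers of other cells are given beside these changes, to be read against the 22.8% of all genes that were higher and the 14.6% that were lower in this comparison. Of 12 macrophage and monocyte markers tested, 3 were higher at 2 weeks, a share near that of all genes (Cd14 by 1.90, Marco by 1.71 and Cd68 by 1.21, log2) and 0 lower. The summed intensity of that list was 2827 to 20716 in TS-2 livers, with the highest value in mouse 5, against 2287 to 7979 in vehicle livers. Marco, a scavenger receptor of Kupffer cells, had 43.6, 73.5, 65.6, 125 and 1548 in TS-2 mice, against 28.9 to 61.6 in vehicle mice. Of 12 sinusoidal endothelial markers 9 were lower, with sums of 1595 to 4069 in TS-2 livers, against 3847 to 6828 in vehicle livers. In NTS-1 livers of 2 weeks 5 of these 12 were also lower than in vehicle livers, where 439 of 14454 genes were. Their sums there were 2556 to 3621. No lymphocyte marker of 7 passed, with sums of 583.8 to 1186 in TS-2 livers, against 672.6 to 1758 in vehicle livers, and the T cell gene Cd3e at 107 to 122 in TS-2 livers, against 102 to 131 in vehicle livers. Of 11 stellate cell and cholangiocyte markers 3 were higher, of 10 neutrophil markers 2 were lower, both near the shares over all genes, of 8 erythroid markers 2 were lower, and of 9 hepatocyte markers 1 was higher and 1 lower. The hepatocyte sum was 156085 to 163836 in TS-2 livers, against 154456 to 165475 in vehicle livers. Their part in the change of the mitotic genes was not tested.

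Other genes of the cell cycle were called in both directions in the same TS-2 livers, beside 22.8% of all genes higher and 14.6% lower. The counts of higher genes below are near that share for both the other G2 and mitosis genes and the replication genes. The count of lower replication genes is also near its share. Of 41 other G2 and mitosis genes tested, 12 were higher and 1 lower, with a median change of 0.06 (log2). The largest of these changes were in Wee1, the kinase that holds Cdk1 inactive (1.15), Stmn1, a microtubule destabilizer (1.09), Trip13, which recycles Mad2 (0.84), and Zwint, a kinetochore protein (0.84). Of 34 genes of G1/S and DNA replication, 10 were higher and 6 lower. They included Mcm5 (1.24) and Mcm4 (0.81), subunits of the replicative helicase, and on the lower side Tk1, thymidine kinase (-1.63), and the replication factor Mcm10 (-1.04). Pclaf, a partner of the sliding clamp PCNA, was 1.44-fold higher (log2 0.53 ± 0.15 SE, limma adjusted p = 0.00742). Ccnd1, cyclin D1 of early G1, had 647, 879.9, 856, 2055 and 1758 in TS-2 mice, against 195 to 460.1 in vehicle mice. The groups did not overlap (4.01-fold, limma adjusted p = 1.7e-05). Cdkn1a, the inhibitor p21 that p53 induces, had 325, 3282, 896, 6092 and 9349 in TS-2 mice, against 84.6 to 338 in vehicle mice. TS-2 mouse 1 was within the vehicle range and mouse 5 the highest (12.3-fold, log2 3.62 ± 0.56 SE, limma adjusted p = 5.93e-05).

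NTS-1 given for the same 2 weeks changed none of the 26 genes past the test against vehicle (0 called by limma, 4 at unadjusted p under 0.05 where 20.3% of all genes were, and 4.91% of all genes tested called in either direction). The lowest of those 4 unadjusted p belonged to Mad2l1 (log2 -0.36, adjusted p = 0.197), and Cdca8 was at 0.47 (adjusted p = 0.245). Set against NTS-1 livers directly, TS-2 livers were higher in 6 of the 26 genes, where 14.1% of all genes were, and lower in 1, where 6.93% were. Cdca8 was 1.32 higher (log2, limma adjusted p = 0.00198), Cdc20 1.19 (0.0169), Birc5 1.19 (0.0221), Ube2c 0.96 (0.0122), Mad2l1 0.61 (0.0212) and Cdk1 0.61 (0.0426). Foxm1 was at -0.30 (0.0352), with all but 1 of the TS-2 mice under all 4 NTS-1 mice. Cdca8 kept its call without any single mouse of these groups, and the count over the 26 genes ran from 2 to 13 as single mice were left out. Cdk1 lost its call without NTS-1 mouse 2, 3 or 4 or TS-2 mouse 4 or 5 (adjusted p 0.066 to 0.128), and Foxm1 without NTS-1 mouse 1, 2 or 4 or TS-2 mouse 4 or 5 (0.0561 to 0.112). Mad2l1 lost it without NTS-1 mouse 1 or 4 or TS-2 mouse 4 or 5 (0.0501 to 0.0656), Birc5 without NTS-1 mouse 3 or 4 or TS-2 mouse 4 (0.0525 to 0.0641), and Cdc20 without NTS-1 mouse 3 or TS-2 mouse 4 (0.0501 and 0.0531). These comparisons share the TS-2 mice, and the comparisons with vehicle share the vehicle mice. In the listed order of arrays NTS-1 mice follow vehicle mice 1 to 5 and TS-2 mice follow vehicle mice 6 to 10. Cdk1 was 76.62 to 98.99 in vehicle mice 1 to 5 and 94.96 to 119.04 in vehicle mice 6 to 10. For Cdca8 these ranges were 42.9 to 68.2 and 40.83 to 69.62. Any part of such a difference in the contrast of TS-2 with NTS-1 livers, its Cdk1 call included, was not tested.

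After a single dose fewer of these genes were called, and most of them were dim, although Cdk1 reached 32 on all 37 arrays. At 8 h after HTS-3, 2 of 35 genes were higher than in vehicle livers and 0 lower (limma, over 18195 genes), where 0.165% of all genes were higher and 0.423% lower. They were Cdk1 and Birc5. Unadjusted p was under 0.05 for 13 of the 35, 12 of them higher, where it was so for 11.4% of all genes in either direction. Some such p-values rest on values at the floor. Fitted by probe set, they arose from log2 changes of 0.002 in Ttk and Nusap1, 0.003 in Aurkb and 0.01 in Kif11. Among HTS-3 mice, Cenpe (16.0), Tpx2 (13.5), Hmmr (8.52) and Kif11 (4.66) left their lowest value only in mouse 3, whose time is in doubt. The median change of the 35 was 0.07 (log2).

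Cdk1 had 213, 193 and 144 in HTS-3 mice at 8 h, 108, 178, 73.0 and 82.5 in TS-2 mice, 105, 104 and 144 in NTS-1 mice, and 65.0, 78.3 and 63.2 in vehicle mice. HTS-3 mice were all above the vehicle mice, as were all NTS-1 mice, and HTS-3 mouse 3 was level with the highest NTS-1 mouse and below TS-2 mouse 2. The change against vehicle was log2 1.40 ± 0.29 SE in HTS-3 livers (limma adjusted p = 0.0178), 0.60 ± 0.27 in TS-2 livers (0.824) and 0.76 ± 0.29 in NTS-1 livers (0.523). The difference between HTS-3 and NTS-1 livers was 0.64 (95% interval 0.05 to 1.23, adjusted p = 0.477), and that between HTS-3 and TS-2 livers 0.80 (0.25 to 1.35, adjusted p = 0.4). With vehicle mouse 1 left out, Cdk1 changed by 1.36 and no longer passed (adjusted p = 0.0684), and with vehicle mouse 3 left out it changed by 1.34 (adjusted p = 0.0549).

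Birc5 had 15.5, 32.5 and 21.4 in HTS-3 mice at 8 h, 13.1, 7.82, 4.56 and 4.56 in TS-2 mice, 4.85, 4.56 and 4.56 in NTS-1 mice, and 4.56, 5.50 and 4.56 in vehicle mice. Each HTS-3 mouse was above every mouse of the other 3 groups, in which most values sat at the lowest value of the data set. The change against vehicle was log2 2.19 ± 0.46 SE (limma adjusted p = 0.0211), and no fold is given because the geometric mean in HTS-3 livers was 22.1, under 32. Birc5 was also the 1 gene of the 35 that passed against NTS-1 livers (2.25 ± 0.46, adjusted p = 0.0111, with 0.0714% of all genes higher). Against TS-2 livers none of the 35 passed (0 called by limma, 12 at unadjusted p under 0.05 where 6.49% of all genes were, 0.264% of all genes called), with Birc5 at 1.70 (95% interval 0.82 to 2.58, adjusted p = 0.133). Against vehicle its adjusted p was 0.0721 with vehicle mouse 1 left out and 0.0549 with vehicle mouse 3 left out. Against NTS-1 it was 0.05 with NTS-1 mouse 2 left out and no longer passed.

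Ube2c, Ccnb2 and Ccna2 were also higher in each HTS-3 mouse than in each vehicle mouse at 8 h, without passing. With Cdk1 and Birc5 that made 5 of the 35 genes, where it held for 657 of all 18195 genes tested. Ube2c had 13.2, 32.2 and 21.1 in HTS-3 mice at 8 h, against 8.18 in each vehicle mouse (log2 1.34, limma adjusted p = 0.289). Ccnb2 had 5.48, 21.0 and 12.7, against 4.56, 4.56 and 4.58 in vehicle mice (1.31, adjusted p = 0.127). Ccna2 had 9.63, 10.1 and 15.0, against 8.85 in each vehicle mouse (0.36, adjusted p = 0.164). Nearly all of these values were dim. Without HTS-3 mouse 1 or 2 the number of genes called was 7, and without vehicle mouse 1 or 3 it was 0. Fitted on the HTS-3 and vehicle livers of 8 h alone, 0 of the 35 passed. With HTS-3 mouse 3 moved to the 16 h group given in its description, Birc5 no longer passed and Cdk1 kept its call (adjusted p = 0.048).

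At 16 h the early change was not seen. Cdk1 had 62.4, 65.0, 69.0 and 46.4 in HTS-3 mice, 65.0, 55.4 and 54.6 in TS-2 mice, 62.1, 65.0, 62.9 and 62.5 in NTS-1 mice, and 111, 59.4 and 62.5 in vehicle mice. Vehicle mouse 1 was above every other mouse, and the other values overlapped between groups. Birc5 had 4.56, 4.56, 4.85 and 4.56 in HTS-3 mice, 4.56 in each TS-2 and NTS-1 mouse, and 34.6, 4.56 and 4.56 in vehicle mice. The effect of HTS-3 against vehicle was lower at 16 h than at 8 h for 2 of the 35 genes, where 1.08% of all genes showed that. The difference between the effects was log2 -3.14 ± 0.63 SE for Birc5 (limma adjusted p = 0.00887) and -1.71 ± 0.39 SE for Cdk1 (0.0247). That of Birc5 was -2.16 without vehicle 16 h mouse 1 and still passed (adjusted p = 0.00453). That of Cdk1 was lost without vehicle 8 h mouse 1 or 3, vehicle 16 h mouse 1, HTS-3 8 h mouse 1 or 2, or HTS-3 16 h mouse 4 (adjusted p 0.0521 to 0.0975).

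**Figure D3:**
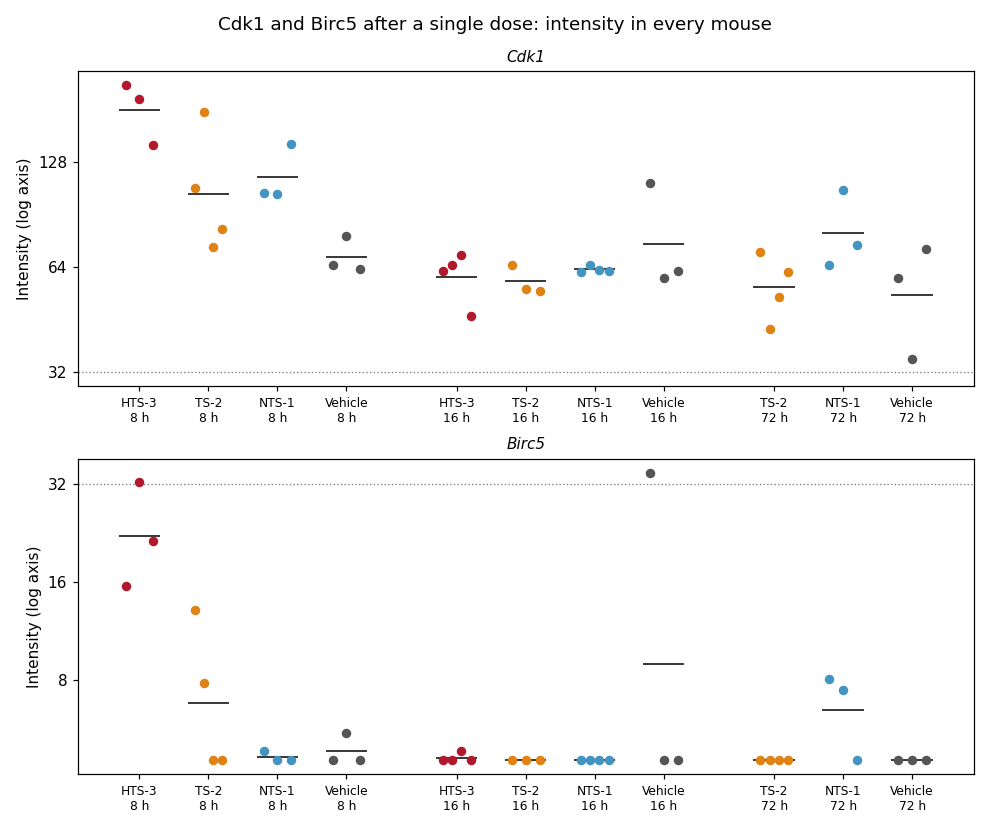
Intensity (log axis) of Cdk1 and Birc5 in each mouse 8, 16 and 72 h after a single dose; bars are geometric means and the dotted line is the dim limit of 32. The 3 HTS-3 mice at 8 h are above the vehicle mice of 8 h for both genes, the HTS-3 mice at 16 h are not, and vehicle 16 h mouse 1 is above all other mice of its time.

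Vehicle 16 h mouse 1 stood apart in other mitotic genes too. Its Cdc20 was 100.1, against 15.1 and 9.34 in the other vehicle mice of 16 h, its Ube2c 48.9 against 8.18 and 7.40, and its Cenpa 359 against 114 and 134. It was the highest of the 37 single-dose arrays for 5 of 30 genes with a single highest array (16.7%), against 3.12% of all such genes. The same mouse had the highest neutrophil and macrophage marker sums at 16 h. Its neutrophil sum was 28616, against 256.1 and 506.5 in the other vehicle mice and 178.5 to 768.2 in all gapmer mice of 16 h, and its macrophage sum 44981, against 18317 and 16162 in the other vehicle mice and 12154 to 25413 in gapmer mice. Each gapmer at 16 h had a negative median change over the 10 neutrophil markers, at -1.80 for HTS-3, -1.81 for TS-2 and -1.76 for NTS-1 (log2), with 9 of 10 at unadjusted p under 0.05 and 0 called by limma. Without this mouse Cdk1 no longer passed in the test of 16 h against 8 h (-1.42, adjusted p = 0.0975), and the part of those cells in the values of the mitotic genes was not tested. NTS-1 72 h mouse 2 was another such mouse, with Cdc20 at 73.3, against 19.5 and 17.9 in the other NTS-1 mice of 72 h, and Ube2c at 41.1 against 8.18 in both. These single vehicle and NTS-1 mice were above all 3 HTS-3 mice of 8 h for Cdc20, at 27.6, 40.6 and 13.6, and for Ube2c.

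Pbk was the 1 gene of the 35 that passed at 16 h after HTS-3, where 3.31% of all genes were higher and 4.03% lower. It had 12.3, 12.3, 9.40 and 12.3 in HTS-3 mice, against 21.4, 12.9 and 13.5 in vehicle mice, all of them dim (log2 -0.43 ± 0.11 SE, limma adjusted p = 0.0143). With vehicle mouse 1 left out the change was -0.20 (adjusted p = 0.237), and with HTS-3 mouse 3 left out the adjusted p was 0.0526, so Pbk passed in neither. In the other single-dose comparisons with vehicle limma called 0 of the 35 genes. For NTS-1 that was at 8 h (0.61% of all genes called, 3 of the 35 at unadjusted p under 0.05), 16 h (0.148%, 3) and 72 h (0%, 3). For TS-2 it was at 8 h (0.044%, 2), 16 h (0.0165%, 2) and 72 h (0.137%, 0). Over all genes, unadjusted p was under 0.05 for 3.94% to 6.4% in these 6 comparisons. Between gapmers after a single dose, limma called 0 of the 35 in TS-2 against NTS-1 livers at 8 h (0.506% of all genes called, 1 of the 35 at unadjusted p under 0.05), 16 h (0.231%, 0) and 72 h (0.17%, 4). It also called 0 at 16 h in HTS-3 against NTS-1 livers (9.64%, 2) and HTS-3 against TS-2 livers (5.95%, 1). Mki67, Foxm1 and Top2a never reached 32 in the single-dose set.

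**Figure D4:**
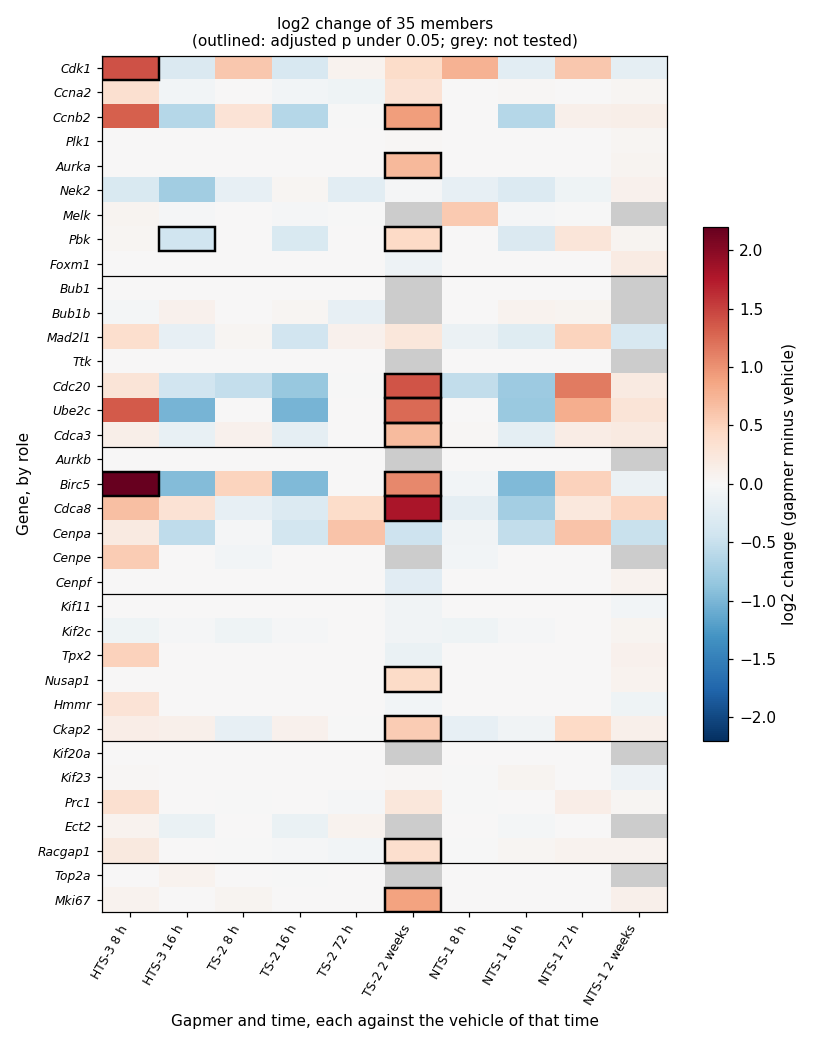
Log2 change of each of the 35 genes with a probe set (rows, grouped by role) in each gapmer group against the vehicle of the same time (columns); outlined cells passed the test and grey cells were not tested. Outlines fall on 12 genes 2 weeks after TS-2, on Cdk1 and Birc5 8 h after HTS-3 and on Pbk 16 h after HTS-3.

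Of 59 other G2 and mitosis genes, limma called 0 in HTS-3 livers at 8 h, with 12 at unadjusted p under 0.05, where 11.4% of all genes were. Of 40 genes of G1/S and DNA replication 2 were higher and 1 lower. The higher ones were Pclaf, with 124, 91.3 and 46.2 in HTS-3 mice, against 22.1, 24.7 and 22.3 in vehicle mice, and Ccne2, cyclin E2. Cdkn1a was at 0.63 and Ccnd1 at -0.39 (log2, adjusted p = 1 for each). Of 13 macrophage and monocyte markers 1, the Fc receptor Fcgr1, was higher (2.23), with list sums of 20020 to 31346 in HTS-3 livers, against 15070 to 15551 in vehicle livers. No lymphocyte marker of 11 passed, with sums of 155.3 to 505.5 in HTS-3 livers, against 176.5 to 335.2 in vehicle livers. The T cell gene Cd8b1 was at the lowest value, 4.56, in all HTS-3 and vehicle mice of 8 h. Their part in the change of Cdk1 and Birc5 was not tested.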

How the data were processed

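The authors deposited 1 value per probe set and array, on a linear intensity scale. RMA is the tool named in the submitters' processing notes, and its version is one of the things not given in the sources used here. As the plan had assumed log2 values, log2 of the deposited intensities was taken here. Of 45101 probe sets, 34958 were annotated to 1 gene, 932 to several and 9211 to none; 34754 of the named ones matched the gene table by gene ID. A gene was represented by its probe set with the highest mean log2 value over the 56 arrays. Genes at or above an array's 40th percentile on at least 3 arrays were tested (18195 of the single-dose set, where this removed none, and 14454 of the 2-week set). Single-dose (37) and 2-week (19) arrays were fitted apart with limma 3.58.1 in R 4.3.3 (lmFit and eBayes, 1 mean per group, no covariate), with Benjamini-Hochberg adjustment over all genes tested and a threshold of 0.05. A contrast of contrasts tested the effect of HTS-3 at 16 h against 8 h. In the single-dose set 3266 genes had the same value in every mouse of each group. The number of arrays and the signal over background limit the precision, and no read depth applies. No pair of arrays was identical.

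The genes and lists were chosen with earlier results of these data known. Values of every mouse are given for genes that passed against vehicle, smallest adjusted p first, at most 8 per comparison, and for Cdk1, Birc5, Top2a, Mki67 and Foxm1; of other lists at most 4 genes are named, besides Cdkn1a, Ccnd1 and Pclaf. Genes further named by role, and leave-out values for mice 4 and 5, were chosen after their values were seen. Alternatives were no filter, a filter at an intensity of 32, the averaged log2 value of a gene's probe sets, each probe set by itself, quantile normalization, the compared groups alone, the replicate number as a block, subsets of the vehicle mice, HTS-3 8 h mouse 3 moved or left out, and each mouse left out. Replicate numbers did not pair the mice: in 0 of 18 comparisons did every pair of same-numbered mice have deviations correlated over 0.1. The fit was also run on simulated normal noise, with outcomes not given here. That run left out genes without spread within groups, so it does not bear on them.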

Additional observations from a re-analysis of the deposited data

Results flagged for a closer look

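In 96 groups of 4 to 10 mice a test for a single mouse far from the rest picked out 10 values, where chance gives about 1 in 20, or 4.8. In TS-2 livers these were Cdca8 at 8 h in mouse 3, the lowest at 73.7, and Nek2 at 2 weeks in mouse 2, the lowest at 28.8. The other TS-2 mice of 8 h all had the repeated value 76.42 for Cdca8. In HTS-3 livers it was Ube2c at 16 h in mouse 2, the lowest at 4.56, where the other HTS-3 mice of 16 h all had the repeated value 8.18. In NTS-1 livers at 2 weeks mouse 3 was the lowest for Ube2c (19.4) and Cdca8 (53.03). In vehicle livers at 2 weeks they were Aurka in mouse 2 (the highest, 69.4), Mad2l1 in mouse 2 (the lowest, 75.3), Ube2c in mouse 4 (the lowest, 15.3), Ckap2 in mouse 3 (the lowest, 38.6) and Mki67 in mouse 5 (the lowest, 21.1).

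The effect of HTS-3 against vehicle differed between 16 h and 8 h by a test of the difference itself for Birc5 (log2 -3.14) and Cdk1 (log2 -1.71). Both were lost when HTS-3 8 h mouse 3 was moved to 16 h, and vehicle 16 h mouse 1, high for both genes, is part of each value.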

How the results depend on the processing

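Of 146 other settings over 19 counts of genes called, 123 gave a count within 1.5 times the reported one, 23 did not, and no direction reversed. For TS-2 against vehicle at 2 weeks (12 genes) the replicate block gave 6, vehicle mice 6 to 10 alone 7, and leaving out TS-2 mice 4 and 5, a setting chosen after the data were seen, 5; single mice left out gave 8 to 15. For HTS-3 against vehicle at 8 h (2 genes) the filter at 32 gave 1 and the compared groups alone 0, and single mice left out 0 to 7. For HTS-3 against vehicle at 16 h (1 gene) the mean of probe sets gave 2, the filter at 32 and the compared groups alone 0 each, and single mice 0 to 1. For TS-2 against NTS-1 at 2 weeks (7 genes) the replicate block gave 1, the compared groups alone 2, TS-2 mice 4 and 5 left out 1, and single mice 2 to 13. For HTS-3 against NTS-1 the mean of probe sets gave 2 at 8 h and 1 at 16 h, the filter at 32 gave 0 at 8 h and 1 at 16 h, the compared groups alone 0 at 8 h, quantile normalization 1 at 16 h, and single mice 0 to 7 at 8 h and 0 to 1 at 16 h. For HTS-3 against TS-2 the mean of probe sets gave 1 at 8 h and 1 at 16 h, mouse 3 moved to 16 h gave 1 at 8 h, the filter at 32 gave 1 at 16 h, and single mice 0 to 7 at 8 h and 0 to 1 at 16 h. For the effect of HTS-3 at 16 h against 8 h (2 genes) the compared groups alone and mouse 3 moved gave 0 each, and single mice 1 to 4. Single mice gave 0 to 1 for NTS-1 against vehicle at 2 weeks and for TS-2 against NTS-1 at 8 h, and 0 in the other comparisons. The causes were not tested. The labels do not say that replicate numbers pair the mice. At 2 weeks no gapmer mouse has the numbers of vehicle mice 6 to 10. The block then in effect sets TS-2 mice against vehicle mice 1 to 5 only. A call lost under it need not be a weaker effect. Of the single-dose genes 27 of 35 were never above 32, so their levels there are limits of the array.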
